A study of Mus musculus with 2 samples.

Results

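The cells described here are the neutrophils of colitis-associated colon tumors (CACs) of mice, chosen as all cells that the deposited annotation calls neutrophils. They were 2130 of 38883 annotated cells, 1053 of 20312 in the library labelled Mir34a_F/F and 1077 of 18571 in the library labelled Mir34a_Mye_KO. Mir34a_F/F mice carry loxP-flanked Mir34a alleles. Mir34a_Mye_KO mice carry the same alleles together with LysM-Cre, a Cre recombinase expressed from the lysozyme M locus in macrophages, monocytes and neutrophils, so that the deletion is not particular to neutrophils. Both groups were female mice of 6 to 10 weeks at the start that received azoxymethane (AOM, 10 mg/kg) and 3 periods of dextran sodium sulfate (DSS) in the drinking water. DSS was given for 5 days at 2.5% in the earlier periods and at 2% in the last, with 16 days of plain water between periods, and the mice were killed on day 110. For each genotype 6 to 8 tumors of 3 mice were pooled into 1 droplet-based single-cell library, after removal of dead cells. There is therefore 1 library per genotype and no biological replicate, no difference between the libraries was tested, and genotype, pool and library cannot be told apart.

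Neutrophils are short-lived granulocytes that leave the bone marrow with their granule proteins already made. In a series of steps that ends before release, precursors transcribe the genes of azurophil granules, then of specific granules and then of gelatinase granules. In blood and inflamed tissue they follow chemokines through Cxcr2 and bacterial peptides through formyl peptide receptors, depend on Csf3r signals, and release proteases, oxidants and the cytokine Il1b. Neutrophils in tumors have been described both as fighting tumor cells and as helping them, by remodelling matrix, feeding vessel growth and restraining T cells.

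The microRNA removed in the Mir34a_Mye_KO mice, miR-34a, pairs with its targets mainly through bases 2 to 8, the seed, which is in capitals in the RefSeq sequence below. It lies on the plus strand at chr4:150068473-150068494 (GRCm38.p6).
mmu-miR-34a-5p: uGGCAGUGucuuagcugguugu

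Cd44, Csf1r, Foxp1, Mmp9, Nampt and Notch2 were followed as published targets of miR-34a, being the examples named for neutrophils by the study. Among these 6 mRNAs, the letters pairing with this seed occurred in the longest annotated 3′ UTR of Notch2 (2 matches in 2917 bases), Foxp1 (2 in 4752 bases), Nampt (1 in 2816 bases) and Csf1r (1 in 1669 bases). They did not occur in the 944 bases of Mmp9 or the 2992 bases of Cd44. The sites of Nampt, at chr12:32851161-32851185, and Notch2, at chr3:98149408-98149432 and chr3:98149596-98149620 (plus strand, mm10), are shown as examples. Both mRNAs were past 1.5-fold between the libraries below. The sites of Foxp1 and Csf1r, which were not, are not shown. The match is in capitals.
Nampt: tccgaacatCACTGCCcttgtagag
Notch2, first site: ctctagtgcCACTGCCtgcgaacag
Notch2, second site: agaagacaaCACTGCCagtcataca

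A second set of sequences comes from the promoters of neutrophil granule genes. C/EBP proteins are factors of the granulocyte lineage that bind sites close to TTGCNNAA. Within 250 bases before the transcription start this motif, on either strand, was found at 3142 of 32851 RefSeq promoters (9.56%). Of the 8 specific granule genes examined, Ltf, Ngp and Lcn2 carried it. So did Mmp8 and Adam8 of the 4 gelatinase granule genes with a promoter in the table, and of the 4 marker genes S100a9. Those of Ltf (chr9:111019207-111019234, plus strand), Ngp (chr9:110419660-110419687, plus strand), Lcn2 (chr2:32387938-32387965, minus strand) and Mmp8 (chr9:7558400-7558427, plus strand; all GRCm38.p6) are given with the motif in capitals, in Ltf as read on the other strand.
Ltf: ggcaggcctaTTGGGCAAtagggtgggg
Ngp: tcctggtttaTTGCCCAAacctccttgc
Lcn2: gcccttcctgTTGCTCAAccttgcacag
Mmp8: taggcagaagTTGCTCAAgatgtagctt

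The motif of PU.1, another myeloid factor, was searched as GAGGAAG on both strands and was found at 3486 of 32851 promoters (10.6%). It occurred before S100a8, Csf3r, Lcn2, Pglyrp1, Olfm4, Mmp8 and Mmp25. A match describes letters and not binding. The mRNAs of the factors themselves were counted at different levels. Cebpb, which acts late in the lineage and in inflammation, had 18.3 UMIs per 10000 UMIs in Mir34a_F/F and 22.0 in Mir34a_Mye_KO. Spi1, which encodes PU.1, had 2.16 and 2.92. Neither was past 1.5-fold between the libraries. Cebpe, the C/EBP of granule-forming precursors, had 15 and 39 UMIs in all neutrophils.

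UMIs, unique molecular identifiers, count captured mRNA molecules. Levels are the UMIs of a gene summed over the cells of a type and library, per 10000 UMIs of the same cells, with exact 95% Poisson intervals that cover counting error only. Neutrophils held 5587077 UMIs in Mir34a_F/F and 9620025 in Mir34a_Mye_KO. A median neutrophil had 4107 and 7330 UMIs, 1446 and 1989 genes, and 1.26% and 2.83% mitochondrial UMIs, so that depth, mitochondrial share and label moved together. Of the cell barcodes, 96 occurred in both libraries, and 5 of the 2130 neutrophils carried one of them.

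The 4 marker genes fitted the label, but they do not test it. The study named its cell types from marker genes in these same data. S100a8 and S100a9, which encode the subunits of calprotectin, were the most abundant. S100a8 had 598 UMIs per 10000 (596 to 600) in Mir34a_F/F and 456 (455 to 458) in Mir34a_Mye_KO. S100a9 had 845 (842 to 847) and 560 (559 to 562). Together they made up 14.4% and 10.2% of all neutrophil UMIs, whereas among macrophages the same share was 0.0930% and 0.108%. Csf3r, the receptor of granulocyte colony-stimulating factor, had 3.20 UMIs per 10000 (3.06 to 3.36) and 5.55 (5.41 to 5.71). Cxcr2, the receptor of the Cxcl1 and Cxcl2 family, had 1.66 (1.56 to 1.77) and 2.56 (2.46 to 2.66). All 4 were highest in neutrophils among 11 cell types in both libraries, as the plot of their levels by cell type shows.

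**Figure D1:**
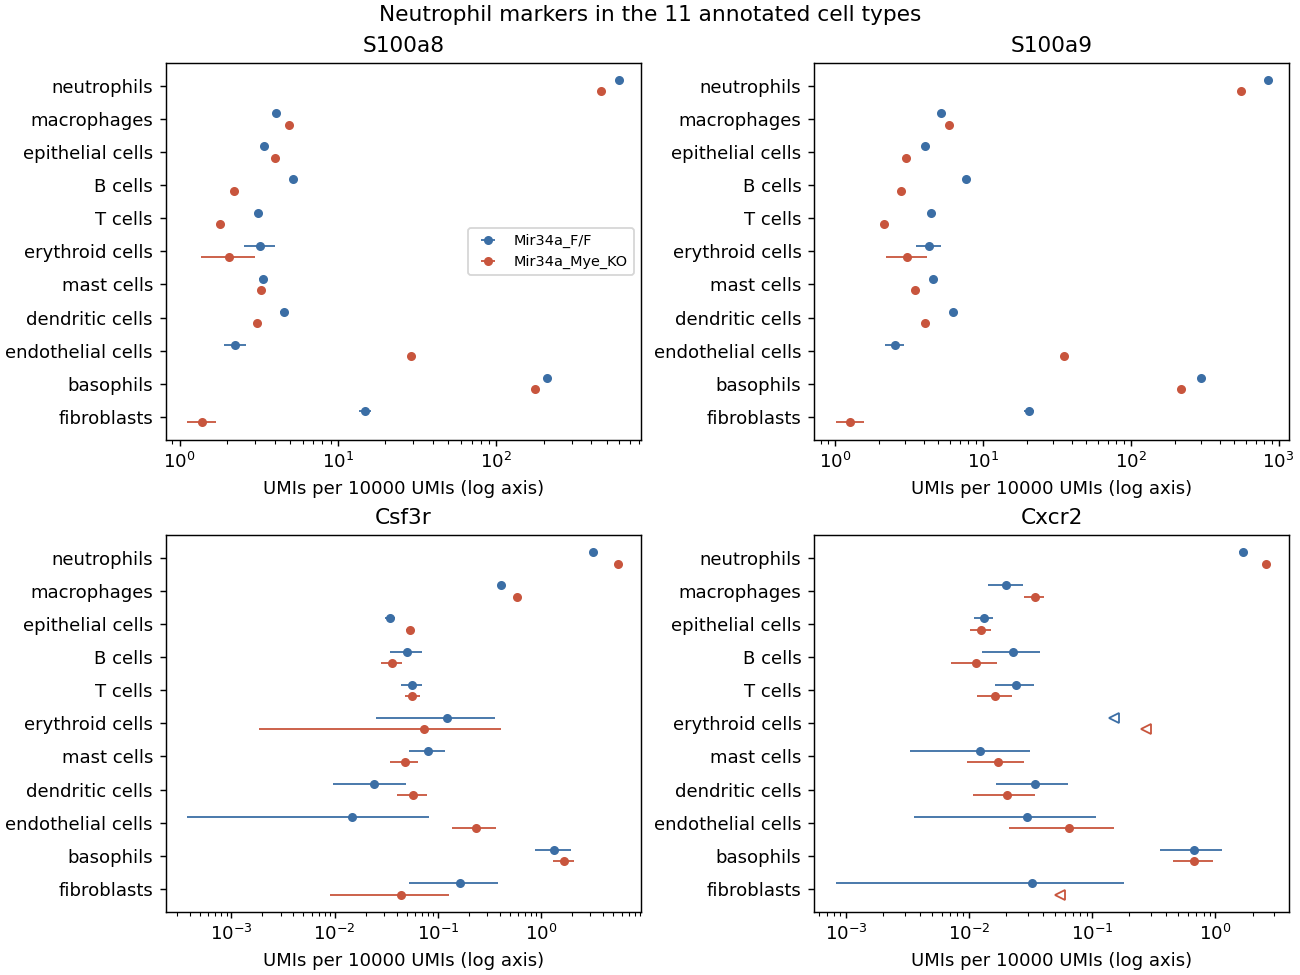
Levels of S100a8, S100a9, Csf3r and Cxcr2 (UMIs per 10000 UMIs, log axis) in the 11 annotated cell types, blue for Mir34a_F/F and red for Mir34a_Mye_KO, with exact 95% Poisson intervals; an open triangle marks the upper limit where no UMI was counted. Neutrophils are highest for each gene, and basophils are next, at 2.41 to 3.84 times lower levels.

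The second highest type was basophils for each of the 4 genes, and some of the cells annotated as basophils had neutrophil-like levels of calprotectin mRNA. Of 88 cells annotated as basophils, 11 of 48 in Mir34a_F/F and 13 of 40 in Mir34a_Mye_KO had over 5% of their UMIs from S100a8 and S100a9. Those 11 cells had 100 UMIs per 10000 of the neutrophil gene Retnlg (92.4 to 109) and no UMI of the basophil protease gene Mcpt8. The other 37 basophils had 0.720 (0.345 to 1.32) of Retnlg and 23.8 (21.3 to 26.5) of Mcpt8. In Mir34a_Mye_KO the 13 cells had 79.2 (75.1 to 83.5) of Retnlg and 1.72 (1.16 to 2.45) of Mcpt8, against 8.84 (7.76 to 10.0) and 15.5 (14.1 to 17.1) in the other 27. Fcer1a, the alpha chain of the IgE receptor of basophils and mast cells, did not separate them, at 2.49 and 5.09 in the cells over 5% and 2.45 and 4.11 in the others. Cells with high levels of neutrophil transcripts, which as a group also held basophil transcripts, were thus annotated as basophils in both libraries, and basophils were the highest other type for 56 and 75 of the 96 genes called below. Outside neutrophils, 49 and 55 cells had over 5% of S100a8 and S100a9. Against the 6 other cell types with over 300 cells per library, S100a8 was 114 and 92.7 times higher in neutrophils than in the next type, and Cxcr2 48.4 and 75.3 times.

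Within the annotated neutrophils the summed share of S100a8 and S100a9 varied widely from cell to cell. Its median was 14.8% of a cell's UMIs in Mir34a_F/F and 9.48% in Mir34a_Mye_KO. In 159 and 170 cells (15.1% and 15.8%) it was under 1%, and 7 and 2 cells had no UMI of either gene. The histogram of this share shows a group of cells near 0 beside a broad range in both libraries.

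**Figure D2:**
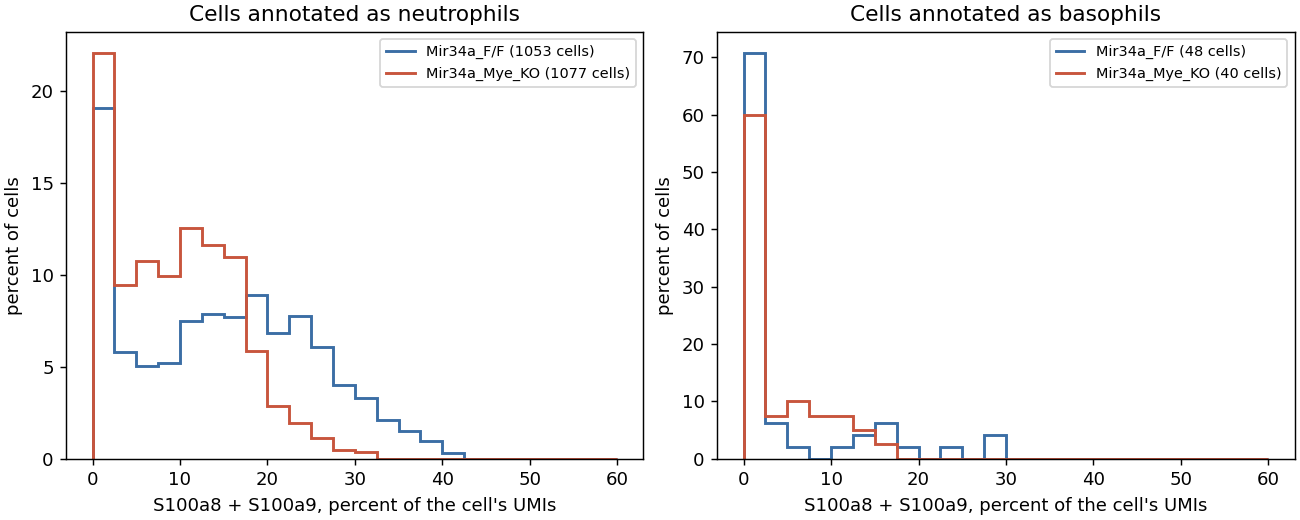
Share of each cell's UMIs from S100a8 and S100a9 (x axis, percent, in steps of 2.5) against the percent of cells, for cells annotated as neutrophils (left) and as basophils (right), blue for Mir34a_F/F and red for Mir34a_Mye_KO. Neutrophil medians are 14.8% and 9.48%, and 11 of 48 and 13 of 40 basophil-annotated cells lie above 5%.

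Against all 10 other cell types, 96 of 8986 genes with at least 100 UMIs in neutrophils (1.07%) were at least 2-fold higher in neutrophils than in the highest other type in both libraries. The cells were clustered on these same values, so such counts describe the label and test nothing. Against the 6 larger types the count was 246 (2.74%). The gene with the widest margin was Itgb2l, an integrin beta chain of granulocytes, with 93 and 143 UMIs and levels 16.2 and 11.5 times those of the next type. Other named genes among the first 15 by the smaller of both folds were Stfa2, a stefin (5.22 and 29.4 times), Mrgpra2a, a Mas-related G protein-coupled receptor (5.17 and 6.80), Abca13, a transporter of the ABC family (6.69 and 4.52), Slfn1, a schlafen (6.34 and 4.49), Fbxl5, the iron-sensing subunit of a ubiquitin ligase (4.32 and 5.02), and Mmp8, the neutrophil collagenase (5.31 and 3.71). Reads of Stfa2 may be shared with near-identical stefin genes. A small subgroup of 58 cells, subgroup 6 below, held 28.0% and 40.6% of the Itgb2l UMIs of neutrophils. It also held 28.7% and 43.2% of those of Abca13. The rest of these 15 were transcripts without a functional name, 4933412O06Rik (17.2 and 8.19 times), Gm39321 (11.1 and 6.55), Gm39459 (6.42 and 13.6), 9830107B12Rik (5.63 and 6.00), Gm29687, Gm2511, Gm28905 and F630028O10Rik.

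Granule genes are taken in the order of granule formation. None of 5 azurophil granule genes reached 100 UMIs. Mpo, which encodes myeloperoxidase, had 8 and 14 UMIs, Prtn3, encoding proteinase 3, had 5 and 38, and Elane, encoding neutrophil elastase, had 0 and 18. In Mir34a_Mye_KO 94.4% of the Elane UMIs were in 1 cell, and 44.7% of the Prtn3 UMIs were in 1 cell, not necessarily the same. Ctsg had none in either library, with upper limits of 0.00660 and 0.00383 UMIs per 10000. All 8 specific granule genes reached 100 UMIs, and 5 of them, against 1.07% of all genes, were at least 2-fold above every other type: Ltf (lactoferrin), Camp (cathelicidin), Ngp (neutrophilic granule protein), Lcn2 (lipocalin 2) and Cd177. The exceptions were Olfm4 (3.93 and 1.95 times the next type), Chil3, which was higher in macrophages, and Pglyrp1, which was higher in epithelial cells. Of 5 gelatinase granule genes, Mmp8 was the only one 2-fold above every type in both libraries. Mmp9, encoding gelatinase B, was 1.59 times the level of macrophages in Mir34a_F/F and 3.94 times the next type, basophils, in Mir34a_Mye_KO.

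Genes of mature neutrophils and of chemotaxis come next. Of 14 mature neutrophil genes, 5 passed the 2-fold rule against 1.07% of all genes, namely Clec4d, Trem1, Asprv1, Retnlg, a resistin-like secreted protein (110 and 82.7 UMIs per 10000), and G0s2, an inhibitor of lipolysis (18.6 and 26.8 UMIs per 10000). Ly6g, the surface antigen used to define mouse neutrophils, had 2.23 and 1.63, which was 1.78 and 1.76 times its level in epithelial cells. Of 9 chemoattractant receptors 3 passed, Fpr1 and Fpr2, which sense formyl peptides, and Cxcr1, which had 85 and 104 UMIs. Ccr1 and Ptafr, receptors of CC chemokines and of platelet-activating factor, were next highest in macrophages, by 1.62 and 1.66 times for Ccr1. No gene of the chemokine and cytokine list passed. Cxcl2, a ligand of Cxcr2, was abundant at 126 and 138 UMIs per 10000, which was 1.01 and 1.72 times the level of basophils. Il1b, at 22.9 and 42.8, was at 23.2 and 28.3 in macrophages. None of the NADPH oxidase, survival, transcription factor or leukotriene and prostaglandin genes passed, and in the remaining lists Il1rap, Itgb2l, Tlr4 and Ifitm6 did. Arg2, which encodes a mitochondrial arginase, was the one gene of the tumor neutrophil list that did, at 3.68 and 2.69 times the next type.

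Clustering of the 2130 cells, with each gene centred within each library, gave 8 subgroups that were present in both. They are descriptions, because the clusters were made from the genes that then distinguish them. Centring removes differences in mean level between the libraries and favours shared subgroups, so that presence in both is not a result. In the study's own sub-clustering, the subtype TAN5 was found mainly in the mice with the deletion. It was not matched to the subgroups given here. Subgroup 1 held 481 cells (45.7% of neutrophils, 42.6 to 48.7) in Mir34a_F/F and 498 (46.2%, 43.2 to 49.3) in Mir34a_Mye_KO. Its leading genes included Rdh12, Scrg1, Stfa2l1 and Rnf144a, and by its markers, among them Retnlg, it was mature circulating neutrophil-like. Retnlg was at 182 and 124 UMIs per 10000 in subgroup 1 and at 27.1 and 24.7 in subgroup 2. In subgroup 6 it was at 187 and 136. S100a8 was at 917 and 624 in subgroup 1 and at 1342 and 963 in subgroup 6. Cxcr2, another marker of mature cells, was at 2.57 and 3.66 in subgroup 1 and at 5.31 and 4.87 in subgroup 7. High levels of these genes are therefore not particular to subgroup 1.

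Subgroup 2 held 177 (16.8%, 14.6 to 19.2) and 185 cells (17.2%), and 11.9% and 9.10% of neutrophils in a clustering at higher resolution. It was led by Fnip2, F10, Hmox1, Gbe1 and Clec4n, that is, a folliculin-interacting protein, coagulation factor X, heme oxygenase 1, the glycogen branching enzyme and dectin-2. Cstb, which encodes cystatin B, had 31.4 and 15.3 UMIs per 10000 there, against 3.21 and 1.88 in subgroup 1. Ccl3, a CC chemokine, had 23.7 and 33.6 against 6.21 and 7.29, and Cd274, which encodes PD-L1, had 4.97 and 8.58 against 1.86 and 3.50. These are members of a list of tumor neutrophils named for Siglecf, but Siglecf itself had only 3 and 16 UMIs in subgroup 2, and 10 and 37 in all neutrophils. The subgroup is therefore called by its leading genes. Calprotectin was low in it, with a median of 1.13% and 2.77% of a cell's UMIs from S100a8 and S100a9, and 7 macrophage markers summed to 3.10 UMIs per 10000 against 2.76 in the other neutrophils. Csf3r had 3.04 and 5.59 UMIs per 10000 there, against 4.80 and 7.32 in subgroup 1. Cxcr2 had 0.984 and 1.72, against 2.57 and 3.66 in subgroup 1.

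Subgroup 6 was small, with 34 (3.23%, 2.25 to 4.48) and 24 cells (2.23%, 1.43 to 3.30), and was precursor granule-like. Camp, Ltf, Chil3, Ngp and Ldhc led it. Camp had 99.8 (95.9 to 104) and 75.9 (73.0 to 78.8) UMIs per 10000 in these cells, and at most 4.81 and 0.477 in any other subgroup. Ltf had 63.6 and 48.3, Ngp had 194 and 176. Cybb, which encodes the catalytic subunit of the NADPH oxidase, was among its 10 leading genes, and Il1b was low, at 8.88 and 20.1. Subgroup 6 held 77.0% and 92.0% of the Camp UMIs of all annotated neutrophils, 74.4% and 86.2% of Ltf and 51.6% and 66.8% of Ngp, but only 17.2% and 16.2% of Lcn2 and 5.66% and 5.53% of Pglyrp1.

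The remaining subgroups set limits to the label. Subgroup 3, with 179 and 124 cells, was led by Bglap3, Saa1, Ifit1bl1, Clca3b and Ceacam20 and carried epithelial transcripts, with Epcam at 12.5 and 10.7 UMIs per 10000 against 2.41 and 1.83 in subgroup 1. Its cells were deep, with medians of 9934 and 16549 UMIs, and 8.35% and 11.9% of them were mitochondrial. Subgroup 5, with 44 and 52 cells, was led by Il17a, Icos, Tnfsf8, Cd3g and Camk4, genes of T cells, and had medians of 8026 and 14799 UMIs. Subgroup 8, with 9 and 11 cells, carried macrophage genes (Itga9, Slc8a1, Vcam1, Ms4a6c). S100a8 stayed at 270 to 523 UMIs per 10000 in subgroups 5 and 8, so that genes of neutrophils and of another type were counted in the same barcodes. Doublets had been removed by the authors with Scrublet, and whether such barcodes held more than 1 cell was not tested.

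Subgroup 4, with 115 (10.9%) and 155 cells (14.4%), was shallow at medians of 1173 and 2211 UMIs. Spink1, AY036118, Mdga2, Gm15564 and Spock2 led it, of which AY036118 and Gm15564 are features that overlap ribosomal RNA sequence. Subgroup 7, with 14 and 28 cells, could not be named and was led by Cc2d2b, 2010009K17Rik, Cadm4, Supv3l1 and Ttc21a. It had the highest Csf3r of all subgroups, at 11.2 (8.52 to 14.4) and 10.8 (9.34 to 12.5) UMIs per 10000, and Treml4, encoding a receptor of the TREM family, at 3.98 and 5.04 against 0.220 and 0.537 in subgroup 1. Subgroups 1, 2, 6 and 7, which were not led by genes of another lineage and were not shallow, held 706 and 735 cells, although markers of other types were also counted in them. Counts restricted to them are given below beside the gene lists.

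**Figure D3:**
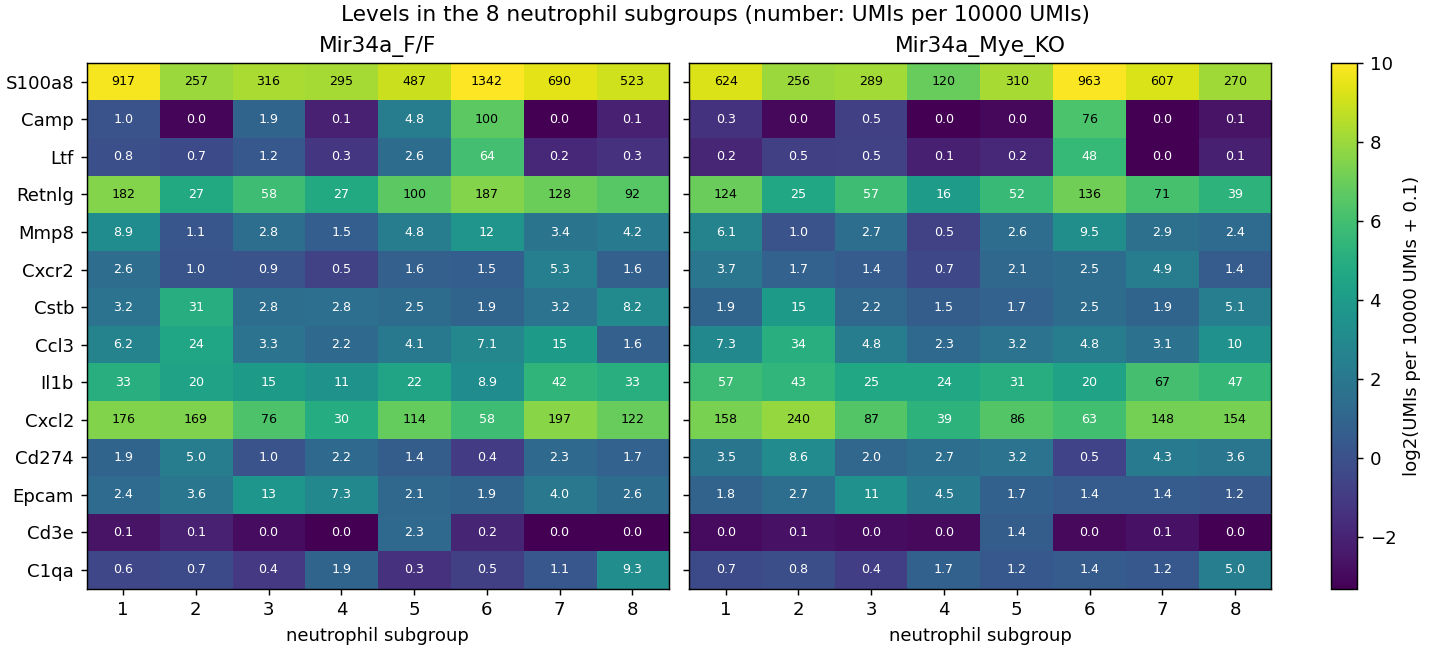
Levels (UMIs per 10000 UMIs, written in each cell; colour, log2 of the level plus 0.1) of 14 genes in the 8 neutrophil subgroups of the library labelled Mir34a_F/F (left) and Mir34a_Mye_KO (right). Camp and Ltf stand out in subgroup 6, Cstb and Ccl3 in subgroup 2, Epcam in subgroup 3, Cd3e in subgroup 5 and C1qa in subgroup 8, in both libraries.

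The question of the design was what differs in cells of mice with a myeloid deletion of Mir34a. The expressed features do not settle it for neutrophils. The feature mir34apri, the primary transcript, had 9 and 12 UMIs, and no UMI was counted in the features for the hairpin, the mature sequence or the stem loop, or in that for Cre alone. Lyz2, the locus that drives Cre, had 0.256 UMIs per 10000 (0.216 to 0.302) in Mir34a_F/F and 0.0842 (0.0669 to 0.105) in Mir34a_Mye_KO. Its log2 ratio of Mir34a_Mye_KO over Mir34a_F/F was -1.60 in neutrophils, -1.92 in T cells and -2.27 in macrophages. The deposited feature crenlslyz2 had 16 and 10 UMIs, and by its name it may share reads with Lyz2. Libraries are therefore named by their labels.

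Neutrophils were 5.18% of cells (4.88 to 5.50, exact binomial) in Mir34a_F/F and 5.80% (5.47 to 6.15) in Mir34a_Mye_KO. Without epithelial cells, the most numerous type, the shares were 12.1% and 12.4%. In subgroups 1, 2, 6 and 7 alone they were 3.48% and 3.96% of all cells. These intervals hold no variation between mice.

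Between the libraries, 518 of 8986 genes (5.76%) were at least 1.5-fold higher in Mir34a_Mye_KO and 1520 (16.9%) at least 1.5-fold lower, with a median log2 ratio of -0.21. Ratios are Mir34a_Mye_KO over Mir34a_F/F, with exact 95% intervals that cover counting error only. In subgroups 1, 2, 6 and 7 the counts were 451 (7.23%) and 517 (8.28%) of 6241 genes, with a median of -0.03. Without restriction to these subgroups, the higher and lower genes numbered 1068 and 538 after subtraction of the median ratio, 914 and 531 after subtraction of the T cell level and 286 and 210 after thinning each cell to 1000 UMIs. Thinning and subtraction of the T cell level also left fewer genes to count. The excess of lower genes therefore changed with the choice of cells and genes and with the scaling. Markers of other cell types also differed between the libraries. The 6 epithelial markers summed to 42.1 and 23.8 UMIs per 10000 in neutrophils to 22.3 and 13.5 in subgroups 1, 2, 6 and 7, and to 30.3 and 16.2 in T cells. The 9 genes of B and plasma cells summed to 20.7 and 51.5 in neutrophils, to 22.8 and 53.7 in subgroups 1, 2, 6 and 7, and to 24.8 and 48.7 in T cells. Hbb-bs, a haemoglobin gene, had 2.14 and 0.142 in neutrophils, with 52.6% and 78.1% of these UMIs in 1 cell of each library. The part of such RNA in the ratios was not tested, and the ratios of T cells and macrophages are given beside those of neutrophils where they bear on a gene.

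All 8 specific granule genes had a log2 ratio below 0, as did 6040 of all 8986 genes. Their median was -0.53, and 3 of 8 were at least 1.5-fold lower against 16.9% of all genes. Camp had 5.88 (5.68 to 6.08) and 3.02 (2.92 to 3.14) UMIs per 10000, a log2 ratio of -0.96 (-1.03 to -0.89). Ltf was at -0.92 (-1.01 to -0.83) and Ngp at -0.82 (-0.86 to -0.77). The number of subgroup 6 cells, 34 and 24, moved with these ratios. Leaving subgroup 6 out, the ratios were further from 0, at -2.50 for Camp, -1.83 for Ltf and -1.37 for Ngp. The cells left include subgroups 3 and 5, with epithelial and T cell genes. These held 377 and 173 Camp UMIs in Mir34a_F/F, against 202 in subgroup 1. For Ltf they held 238 and 92, against 176. Within subgroup 1 the ratios of Camp, Ltf and Ngp were -1.76, -2.30 and -1.57. In subgroup 2 Camp had 1 and 3 UMIs, and Ltf was at -0.51 (-1.10 to 0.10). Within subgroup 6 the levels were 99.8 and 75.9 UMIs per 10000 for Camp, 63.6 and 48.3 for Ltf and 194 and 176 for Ngp. Each of these was lower by less than 1.5-fold, and Chil3 was higher there, at 5.92 and 13.1. Within subgroup 1, 6 of 7 specific granule genes were at least 1.5-fold lower against 7.67% of 4706 genes. Within subgroup 2 it was 1 of 5 against 13.6% of 2666 genes, with Lcn2 at 0.21 (0.07 to 0.36). Lcn2, an iron-scavenging protein made in both precursors and mature cells, had 32.4 and 19.8 UMIs per 10000 in subgroup 1. T cells, which do not make these proteins, had ratios of -1.66 for Camp, -0.73 for Ltf and -1.64 for Ngp, and macrophages of 0.34, 0.06 and -0.48. Of the Camp UMIs in all neutrophils, 1 cell held 13.1% and 20.5%. Restricted to subgroups 1, 2, 6 and 7, 5 of 8 specific granule genes were at least 1.5-fold lower against 8.28% of all genes. Of the gelatinase granule genes 4 of 5 were above 0, as were 2946 of all 8986 genes, with a median of 0.28. Mmp8 was at -0.40 (-0.47 to -0.33), Mmp9 at 0.63 and Mmp25, a membrane-bound matrix metalloproteinase, at 0.63 (0.41 to 0.85). None of the 5 was past 1.5-fold in subgroups 1, 2, 6 and 7.

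S100a8, S100a9 and Retnlg, all abundant in neutrophils, also had ratios below 0, and of them only S100a9 was at least 1.5-fold lower. The median of all genes was -0.21. S100a8 had a log2 ratio of -0.39 (-0.40 to -0.38), S100a9 of -0.59 (-0.60 to -0.59) and Retnlg of -0.41 (-0.42 to -0.39). In subgroup 1 they were at -0.55, -0.77 and -0.55, and in subgroup 2 at -0.01, -0.12 and -0.13. By summed UMIs, S100a9 and Retnlg had lower levels in Mir34a_Mye_KO in each of the 8 subgroups. The difference was least for S100a9 in subgroup 2, where S100a8 was at 257 and 256 UMIs per 10000. Retnlg hardly differed in subgroup 3, at 58.0 (56.9 to 59.0) and 57.1 (56.1 to 58.1). In subgroup 2 the median share of S100a8 and S100a9 per cell was higher in Mir34a_Mye_KO, at 1.13% and 2.77%. Macrophages had ratios of 0.27 and 0.18 for S100a8 and S100a9, and T cells of -0.80 and -1.06.

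Csf3r had a log2 ratio of 0.79 (0.72 to 0.87) and Cxcr2 of 0.62 (0.51 to 0.73), and macrophages had 0.52 and 0.76 for them. Of the growth factor and cytokine receptors of the list, 4 of 9 were at least 1.5-fold higher against 5.76% of all genes. They were Csf2rb, the shared beta chain for Csf2, Il3 and Il5 (0.62), Il6ra (0.65), Tnfrsf1b, a receptor of tumor necrosis factor (0.77), and Il1rap, the co-receptor of the interleukin 1 family (0.73). In subgroups 1, 2, 6 and 7, 3 of 9 were at least 1.5-fold higher. Of 9 chemoattractant receptors, Ccr1 (0.65, with 0.61 in macrophages and 0.40 in T cells) and Ccrl2 (0.79) passed that size, while Cxcr1 was at -0.49 (-0.92 to -0.06). Of 10 adhesion genes 3 passed, Itga4 (0.95), Icam1 (0.60) and Cd44 (0.67), which encode the alpha 4 integrin, a ligand of leukocyte integrins and the hyaluronan receptor. The counts in subgroups 1, 2, 6 and 7 were 2 of 10 for adhesion and 1 of 9 for chemoattractant receptors, with 1 of 9 lower, against 7.23% higher and 8.28% lower of all genes there, so that the count for chemoattractant receptors is near that of all genes.

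Several inflammatory genes were higher in Mir34a_Mye_KO, and others were not. Il1b had 22.9 (22.5 to 23.3) and 42.8 (42.4 to 43.3) UMIs per 10000, a log2 ratio of 0.90 (0.87 to 0.93). Nlrp3, a sensor of the inflammasome that matures Il1b, had 5.41 (5.22 to 5.60) and 10.9 (10.7 to 11.1), a ratio of 1.01 (0.95 to 1.07). Macrophages, the other main source of Il1b, had ratios of 0.28 and 0.67 for the same genes. Within subgroup 1 the neutrophil ratios were 0.79 and 0.94, and within subgroup 2 they were 1.10 and 0.68. Of 16 chemokine and cytokine genes with 100 UMIs, 6 were at least 1.5-fold higher against 5.76% of all genes, and 5 of 15 in subgroups 1, 2, 6 and 7 against 7.23%. They were Il1a (0.73), Il1b, Osm (0.64), Il23a (0.74), Il10 (0.83) and Csf1 (0.74). For Il10, 29.8% of the UMIs in Mir34a_Mye_KO came from 1 cell, and its ratio was -0.069 after thinning. Cxcl1, a ligand of Cxcr2, was the 1 gene at least 1.5-fold lower, at -0.60 (-0.75 to -0.46), but at 0.19 after subtraction of the T cell level. Tnf was at 0.02 (-0.11 to 0.15), and Cxcl2 was at 0.13 (0.12 to 0.14), with -0.15 in subgroup 1 and 0.50 in subgroup 2. Of 15 genes for pattern and Fc receptors 5 were at least 1.5-fold higher, Tlr2 (0.91), Tlr4 (0.66), Clec5a (0.88), Nlrp3 and Casp4 (0.68), and 3 of 15 were in subgroups 1, 2, 6 and 7. Nfkbiz, an atypical inhibitor of NF-kappa B that is induced by Toll-like receptors and Il1, was the 1 of 15 transcription factor genes past that size, with 6.94 and 12.8 UMIs per 10000 and a ratio of 0.88 (0.83 to 0.94). For the transcription factors this count, also 1 of 14 in subgroups 1, 2, 6 and 7, is near the share of all genes.

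Of 14 tumor neutrophil genes with 100 UMIs, 3 were at least 1.5-fold higher and 1 lower, against 5.76% and 16.9% of all genes. In subgroups 1, 2, 6 and 7 the counts were 3 and 2 with a median of 0.01, against 7.23% and 8.28% of all genes there, and within subgroup 2 they were 2 and 4 of 13, against 11.4% and 13.6%. Those higher in all neutrophils were Cd274, Ptgs2, which encodes cyclooxygenase 2, and Arg2. Cd274 had 1.79 and 3.68 UMIs per 10000, a log2 ratio of 1.04 (0.93 to 1.14). Ptgs2 had 4.34 and 8.32, a ratio of 0.94 (0.87 to 1.01), and Arg2 had 3.77 and 7.06, a ratio of 0.91 (0.84 to 0.98). Cstb was lower at -0.68 (-0.75 to -0.61), and was also at -0.88 in macrophages and -0.73 in T cells. Vegfa, an angiogenic factor, was at 0.06 (-0.07 to 0.20) in all neutrophils, at 0.45 in subgroup 1 and at -0.73 in subgroup 2. Ptgs2 and Arg2 were at 0.18 and 0.23 in macrophages and at 0.06 and -0.05 in T cells. Cd274 was at 0.55 in macrophages and 0.43 in T cells.

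Oxidase genes were at a median of 0.47, with Ncf1 at 0.66 and Ncf4 at 0.65, 2 of 6 past 1.5-fold against 5.76% of all genes and 0 of 6 in subgroups 1, 2, 6 and 7. Genes of survival were at a median of 0.29, with Birc3 (0.74) and Pim1 (0.62) past it among 10, and 1 of 10 in subgroups 1, 2, 6 and 7, against 7.23% of all genes there. Of interferon-stimulated genes within subgroup 1, none of 11 was at least 1.5-fold higher and 3 were lower, against 9.65% and 7.67% of all genes there. Within subgroup 2, 3 of 8 were higher and none lower, against 11.4% and 13.6%, and the difference between the subgroups was not tested. Of 13 in all neutrophils, 4 were at least 1.5-fold higher, Ifit2, Ifit3, Rsad2 and Gbp2, and 1 was lower, Ifitm3 at -0.67 (-0.72 to -0.62). The shares of all genes were 5.76% and 16.9%. Ifit2 and Ifit3 rested on 22 UMIs each in Mir34a_F/F. In subgroups 1, 2, 6 and 7 the counts were 2 higher and 2 lower of 11, against 7.23% and 8.28% of all genes there. None of 14 mature neutrophil genes was at least 1.5-fold lower, against 16.9% of all genes. Il1r2, the decoy receptor of Il1 (0.62), and Hdc, which makes histamine (0.59), were the 2 that were higher, against 5.76%. In subgroups 1, 2, 6 and 7 none of 14 was higher or lower, against 7.23% and 8.28% of all genes there.

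Of the 6 published miR-34a targets followed here, 4 were at least 1.5-fold higher against 5.76% of all genes. They are examples from a longer list, picked by the study from genes higher in the library labelled Mir34a_Mye_KO, so that this count is not independent evidence of a direction. Nampt, whose site is shown above and which makes an NAD precursor, had 1.53 (1.43 to 1.64) and 2.49 (2.39 to 2.59) UMIs per 10000, a log2 ratio of 0.70 (0.59 to 0.81). Notch2, with its pair of sites, was at 0.68 (0.59 to 0.77). Mmp9 and Cd44, with no seed match in the UTRs read here, were at 0.63 (0.56 to 0.71) and 0.67 (0.63 to 0.71). Foxp1, with 2 matches, was at 0.14 (0.04 to 0.23), with 0.57 in subgroup 1 and -0.38 in subgroup 2, and Csf1r, the receptor of Csf1, at 0.38 (0.15 to 0.61) on 219 and 490 UMIs. A match was thus held by Nampt and Notch2 of the 4 past 1.5-fold, and by both of the others. In subgroups 1, 2, 6 and 7 only Nampt (0.63) of the 6 passed 1.5-fold, against 7.23% of all genes there, and the median of the 6 was 0.54. Within subgroup 1, 2 of 6 passed against 9.65% of all genes, and within subgroup 2, 3 of 6 against 11.4%. T cells, in which LysM-Cre is not expected to act, had ratios of 0.25 for Nampt, 0.34 for Notch2 and 0.45 for Cd44.

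Over all genes, 1488 of 8594 with an annotated 3′ UTR (17.3%) held a seed match. Of these, 5.85% were at least 1.5-fold higher and 12.6% lower, against 5.32% and 17.7% of the 7106 without a match. Median log2 ratios were -0.16 and -0.23. The UTRs with a match had a median length of 2396 bases and those without of 1048 bases, and the part of length in this difference was not tested.

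Mmp9 stood apart from macrophages. Its level in neutrophils was 3.55 (3.40 to 3.71) and 5.51 (5.36 to 5.66) UMIs per 10000, and in macrophages 2.24 and 1.23, a macrophage log2 ratio of -0.87. Within neutrophils the ratio was 0.52 in subgroup 1 and 0.82 in subgroup 2.

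Genes with at least 500 UMIs were ranked by ratio, leaving out immunoglobulin, haemoglobin, mitochondrial, ribosomal and unnamed genes. The 10 with the largest ratios were Cd101, Treml4, Slc9a9, Cstdc5, Chst11, Fgd3, Il10ra, Malt1, Olr1 and Cd86. Cd101, an inhibitory surface protein that marks mature neutrophils, had 0.233 (0.194 to 0.276) and 0.608 (0.560 to 0.659) UMIs per 10000, a ratio of 1.39 (1.11 to 1.67). Olr1, the receptor of oxidised low-density lipoprotein, had 2.74 and 5.97, a ratio of 1.12 (1.04 to 1.21), with 0.96 in subgroup 1 and 0.85 in subgroup 2. Chst11, a sulfotransferase, was at 1.21 and Malt1, a protease of NF-kappa B signalling, at 1.13. Cstdc5, a stefin gene that may share reads with its neighbours, had 30.5% of its Mir34a_Mye_KO UMIs in 1 cell, and its ratio without subgroup 6 was 0.05. Il10ra, which encodes the receptor of Il10, was at 1.15, Fgd3 at 1.20, Slc9a9 at 1.30 and the costimulatory ligand gene Cd86 at 1.12, and macrophages had 0.57, 0.66, 1.24 and 1.16 for these.

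In the same ranking, without haemoglobin genes, the 10 genes with the smallest ratios were Ptn, Mt2, Mt3, Snhg9, Hspb1, Tnfrsf12a, Tsc22d1, Sox9, Nupr1 and Crip1. Ptn encodes the growth factor pleiotrophin, Mt2 and Mt3 encode metallothioneins, and Sox9 is a factor of intestinal epithelial stem cells. Ptn had a ratio of -1.60 (-1.80 to -1.40) in all neutrophils and of -0.61 in subgroups 1, 2, 6 and 7. Each of the 10 was higher in another cell type in both libraries, for Sox9, Nupr1 and Mt3 in epithelial cells, and each was below 0 in T cells as well, for example at -1.18 for Sox9 and -1.29 for Nupr1.

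**Figure D4:**
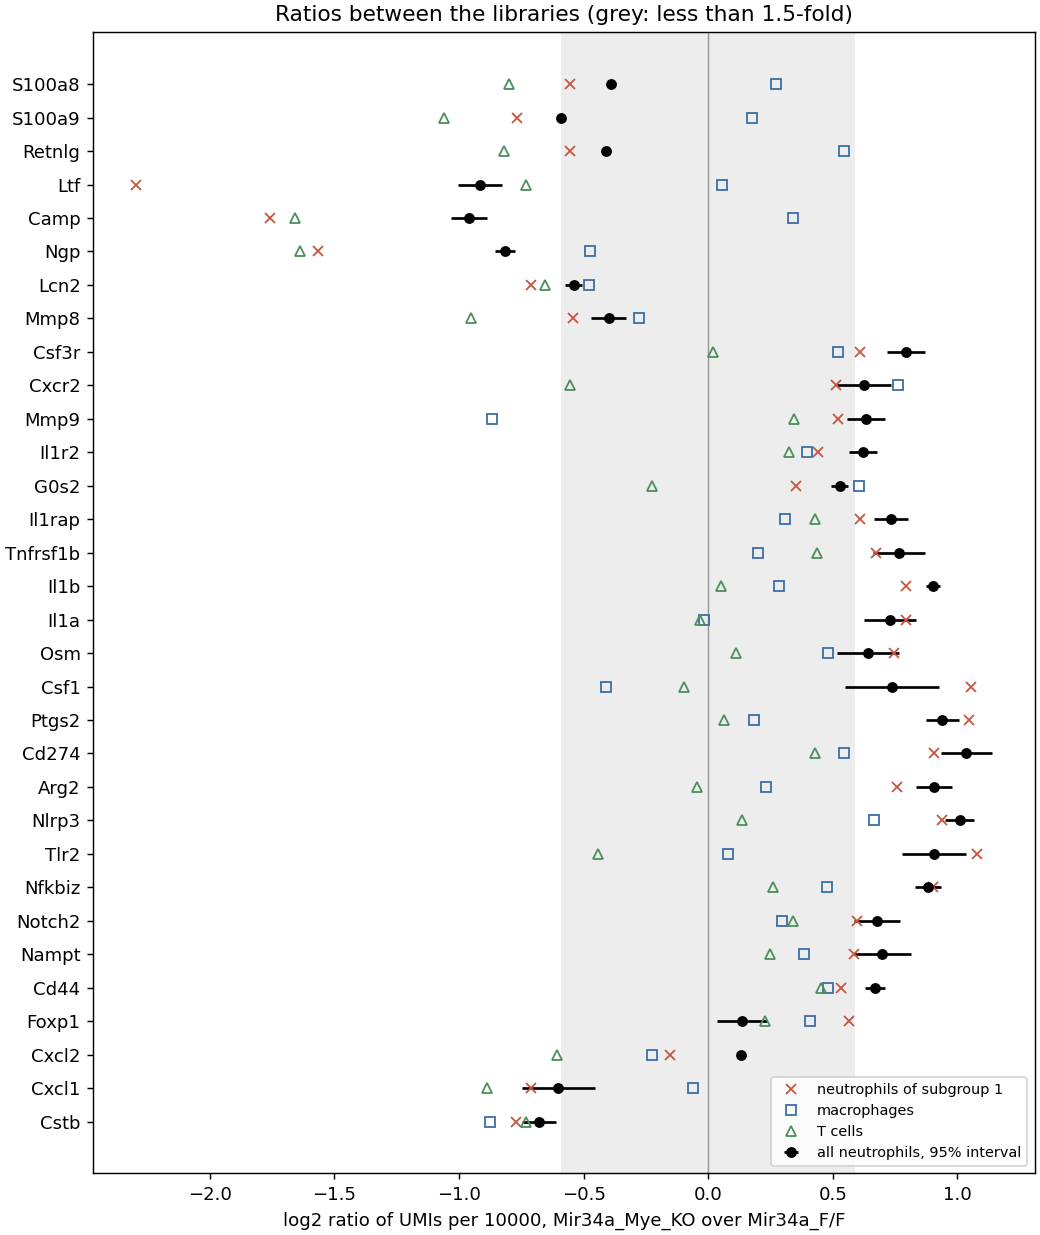
Log2 ratio of levels, Mir34a_Mye_KO over Mir34a_F/F (x axis), for 32 genes: black points, all neutrophils with exact 95% intervals; red crosses, neutrophils of subgroup 1; blue squares, macrophages; green triangles, T cells; grey, less than 1.5-fold. Calprotectin genes, Ltf, Camp, Ngp, Lcn2 and Mmp8 lie left of 0, and Mmp9 (0.63), Csf3r (0.79), Il1b (0.90), Nlrp3 (1.01), Ptgs2 (0.94) and Cd274 (1.04) lie right of 0 in neutrophils.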

How the data were processed

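Per the study's methods, the authors aligned 10x Chromium reads with Cell Ranger 7.2.0 to mm10, filtered cells on detected genes and mitochondrial share, removed doublets with Scrublet, and deposited natural log values of 1 plus UMIs per 10000 (Seurat LogNormalize) for 32291 genes, with a cell type per cell. The study's own sub-clustering used somewhat more neutrophils than this annotation holds. The log was undone to whole UMIs (largest deviation 1.5e-10), which were summed by cell type and library. Intervals are exact, namely Poisson for levels, conditional binomial for ratios and binomial for shares, with 95% coverage. Those for ratios were tested on simulated counts with Poisson error only. Genes needed 100 UMIs over both libraries; calls are by size, 2-fold over the highest other type or 1.5-fold between libraries. The members and gene lists were chosen with earlier results of these data known. Named genes are those of the lists, the 15 with the largest fold over other types, the 10 at each end of the ratios with at least 500 UMIs (without immunoglobulin, haemoglobin, mitochondrial, ribosomal and unnamed genes) and the 5 leading genes of each subgroup. Subgroups came from 2000 variable genes, 30 principal components, 20 neighbours and Leiden clustering (leidenalg 0.10.2, resolution 0.5; numpy 2.4.6, scipy 1.17.1). A subgroup was named only with 3 detected markers, and not where it was shallow, under 1/3 of its library's median UMIs. Genes of a different lineage leading a subgroup were taken from lists. Alternatives were the mean over cells, stricter cells (500 genes, under 10% mitochondrial), thinning to 1000 UMIs (27 and 1 cells dropped), subtraction of the T cell level, other totals, other minima and other clusterings. Results for some genes are not reported here.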

Additional observations from a re-analysis of the deposited data

Results flagged for a closer look

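Mmp9 was singled out because its ratio between the libraries had opposite directions, past 1.5-fold, in neutrophils and macrophages. The log2 ratio was 0.63 (0.56 to 0.71) in neutrophils, on 1985 and 5302 UMIs, and -0.87 in macrophages. In subgroups 1, 2, 6 and 7 the neutrophil ratio was 0.52, which is under 1.5-fold. With 1 library per genotype the difference was not tested, and genotype and library cannot be told apart. No other named gene with 100 UMIs in both cell types met this condition.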

How the results depend on the processing

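No paired analysis was possible because each genotype has 1 library, and with 1 library no replicate could be left out. Genes 2-fold above every other type numbered 96, against 171 in subgroups 1, 2, 6 and 7 and 246 against the 6 larger types. Genes at least 1.5-fold higher in Mir34a_Mye_KO numbered 518, against 286 after thinning each cell to 1000 UMIs, 914 after subtracting the level of T cells, 901 and 332 with minima of 20 and 500 UMIs, and 1068 after subtracting the median ratio. Lower genes numbered 1520, against 210, 531, 3189, 373 and 538 under the same settings, 927 without the deepest 5% of cells and 517 in subgroups 1, 2, 6 and 7. The number of genes tested also changed under the minima, after thinning and after subtraction of the T cell level. It changed as well without the deepest 5% of cells and in subgroups 1, 2, 6 and 7. How far this set the counts was not tested. The share of neutrophils was 12.1% and 12.4% without epithelial cells, 7.08% and 8.15% in stricter cells, and 3.48% and 3.96% in subgroups 1, 2, 6 and 7 (chosen after seeing the data). At a higher resolution subgroup 1 held 50.7% and 53.9% and subgroup 2 held 11.9% and 9.10% of neutrophils, and with libraries clustered apart subgroup 3 held 29.5% in Mir34a_F/F. Among genes past 1.5-fold, the ratio changed sign for Cxcl1 (0.19), Hba-a2 (2.95) and Hbb-bs (0.026) after subtraction of T cells and for Il10 (-0.069), Fcer1a (-0.069) and Gm39459 (-0.20) after thinning. Of 232 named genes, whatever their size of ratio, 201 kept their sign after thinning and 215 in subgroups 1, 2, 6 and 7, and 162 of 173 did after subtraction of T cells. Sizes were less stable. Apart from the genes just named, the ratio left its reported 95% interval for 138 of 232 genes after thinning. It did so for 116 of 232 in subgroups 1, 2, 6 and 7, and for 75 of 173 after subtraction of T cells. Intervals cover counting error only, and depth differed between the libraries, so that no setting separates genotype from library.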
